A study of Mus musculus with 8 samples.

Results

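The transcription factor genes of gut and lung mesenchyme are described here across mouse embryos mutant for Rdh10 and wild type embryos. They are Foxf1, Foxf2, Barx1, Hlx, Osr1, Osr2, Tcf21 and Wt1, chosen by symbol, and all 8 were found among the 55421 gene identifiers of the table. Tissue at the level of somites 1 to 7, the vagal region, was taken at embryonic day 9.5. Samples of genotype Rdh10(trex/trex), called trex, and wild type samples, called wt, numbered 4 each, and every sample gave 1 poly-A RNA-seq library. The genotypes were compared for the RNA levels of this region. No other allele or agent is named in the labels, which are silent on pooling of embryos and on litters. P-values thus reflect the spread among 4 samples of a genotype, part of which may be technical.

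Rdh10 is the retinol dehydrogenase that makes retinaldehyde, from which retinoic acid is formed. The mesenchyme around the early foregut comes from splanchnic mesoderm, which faces the endoderm, receives Hedgehog ligands from it and later gives smooth muscle and connective tissue of gut and lung. The forkhead factors Foxf1 and Foxf2 act downstream of Hedgehog signalling there, Barx1 marks the stomach part, and Hlx is needed in the mesenchyme beside liver and gut. Osr1 and Osr2 are zinc finger factors of lateral and intermediate mesoderm, and Osr1 takes part in specifying the lung field. Tcf21 and Wt1 mark the epicardium and mesothelium and mesenchyme of several organs, and Wt1 also the early urogenital ridge.

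Promoter sequence was at hand for 4 of the 8 genes in RefSeq's table (GRCm38.p6, the same assembly as mm10). These 4 are shown because no entry was at hand for the others, Osr1 among them. Barx1 and Foxf2 lay lower in all 4 trex samples than in any wt sample, as did Osr1, while Tcf21 and Hlx did not. No link between these sequences and the RNA levels was tested. Each run is the gene's own strand, 5′ to 3′, from 250 bases before the RefSeq start up to the base before the first GENCODE M21 exon, and capitals mark the letters GGGCGG on either strand.
Barx1, chr13:48662786-48662997, plus strand: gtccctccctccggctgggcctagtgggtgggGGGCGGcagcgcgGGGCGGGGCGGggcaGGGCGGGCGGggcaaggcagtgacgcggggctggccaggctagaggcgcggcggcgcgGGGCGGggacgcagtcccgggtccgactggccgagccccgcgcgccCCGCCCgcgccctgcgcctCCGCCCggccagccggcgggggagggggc
Foxf2, chr13:31625566-31625815, plus strand: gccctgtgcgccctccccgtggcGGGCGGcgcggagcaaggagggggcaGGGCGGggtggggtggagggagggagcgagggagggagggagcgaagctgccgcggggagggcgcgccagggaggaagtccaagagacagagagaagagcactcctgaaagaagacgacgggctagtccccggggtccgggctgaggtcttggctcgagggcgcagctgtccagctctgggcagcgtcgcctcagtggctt
Hlx, chr1:184732620-184732743, minus strand: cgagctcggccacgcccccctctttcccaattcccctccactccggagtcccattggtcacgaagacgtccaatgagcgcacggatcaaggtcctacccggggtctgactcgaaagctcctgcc
Tcf21, chr10:22820175-22820393, minus strand: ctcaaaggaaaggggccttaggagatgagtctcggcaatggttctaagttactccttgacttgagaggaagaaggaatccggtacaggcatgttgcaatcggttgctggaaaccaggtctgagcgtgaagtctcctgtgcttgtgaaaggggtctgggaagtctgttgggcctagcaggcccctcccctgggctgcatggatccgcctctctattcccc
The Barx1 stretch is the richest in G and C of the 4, at 85.4%, against 71.6% for Foxf2, 62.9% for Hlx and 54.8% for Tcf21 and a median of 52.4% over all 250-base windows of the table. GGGCGG, the core of the GC box, occurred 8 times before Barx1, where some matches overlap, 2 times before Foxf2 and not before Hlx or Tcf21. It occurred in 32.7% of all 32851 windows. AGGTCA, the half-site of retinoic acid receptors, occurred in none of the 4 stretches and in 14.0% of all windows. GACCACCC, the core of the site bound by the Gli factors of Hedgehog signalling, also occurred in none of the 4 and in 0.703% of all. The stretches of Barx1, Tcf21 and Hlx, at 212, 219 and 124 bases, are shorter than the 250-base windows, so these shares are not over like lengths. Matches are letters in these stretches and were not tested as sites.

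Depth was even, and tissue content was not. Values are TPM, a transcript level scaled for gene length and library total. Between 20928981 and 23648646 whole reads per library could be recovered from them. Rdh10 RNA averaged 76.0 ± 20.2 TPM in the mutants against 38.8 ± 2.20 TPM (SD, n = 4 per genotype here and for all later values), which is no check of the labels, since a mutation need not lower its transcript. Cardiomyocyte markers summed to between 239.3 and 2877 TPM in trex and between 318.8 and 2806 TPM in wt. Liver bud and yolk sac markers summed to 34.9 to 635.2 TPM in trex and 29.9 to 242.4 TPM in wt, with albumin listed at 0 in wt replicates 1 and 2. Hox genes of groups 6 to 13, which mark more caudal levels, summed to between 505.8 and 648.5 TPM in trex and between 94.9 and 257.7 TPM in wt, so that trex lay above every wt library. Y-linked transcripts reached 162 and 158 TPM in wt replicates 2 and 3 and at most 0.0662 TPM in the other 6 libraries.

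Of the 8 genes, Barx1 and Osr1 fell in trex and none rose. Foxf2 was also lower in each trex library than in each wt library without passing the test. Foxf1, Hlx, Tcf21 and Wt1 overlapped between the genotypes, and Osr2 was almost silent in both. Genes were tested with limma on log2(TPM + 1), with Benjamini-Hochberg adjustment over the 15717 genes with a mean TPM of at least 1, and called at an adjusted p below 0.05. Of the 8, 7 were tested, since Osr2 lay under that level. The test called 8.71% of all genes, 4.94% as higher and 3.77% as lower in trex, and 2 of the 7 tested factors were lower against that background. In limma 0 were higher and 3 had an unadjusted p under 0.05, a count that was not made over all genes. Voom on the recovered reads called 1 of the 7 factors and 1442 of all 15717 genes. Groups did not overlap for 3 of the 7, all lower in trex, against 21.8% of all genes in either direction and 8.95% lower in trex. The median log2 difference of the 7 was -0.60 and that of all genes 0.04, and 5 of the 7 lay below 0.

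**Figure D1:**
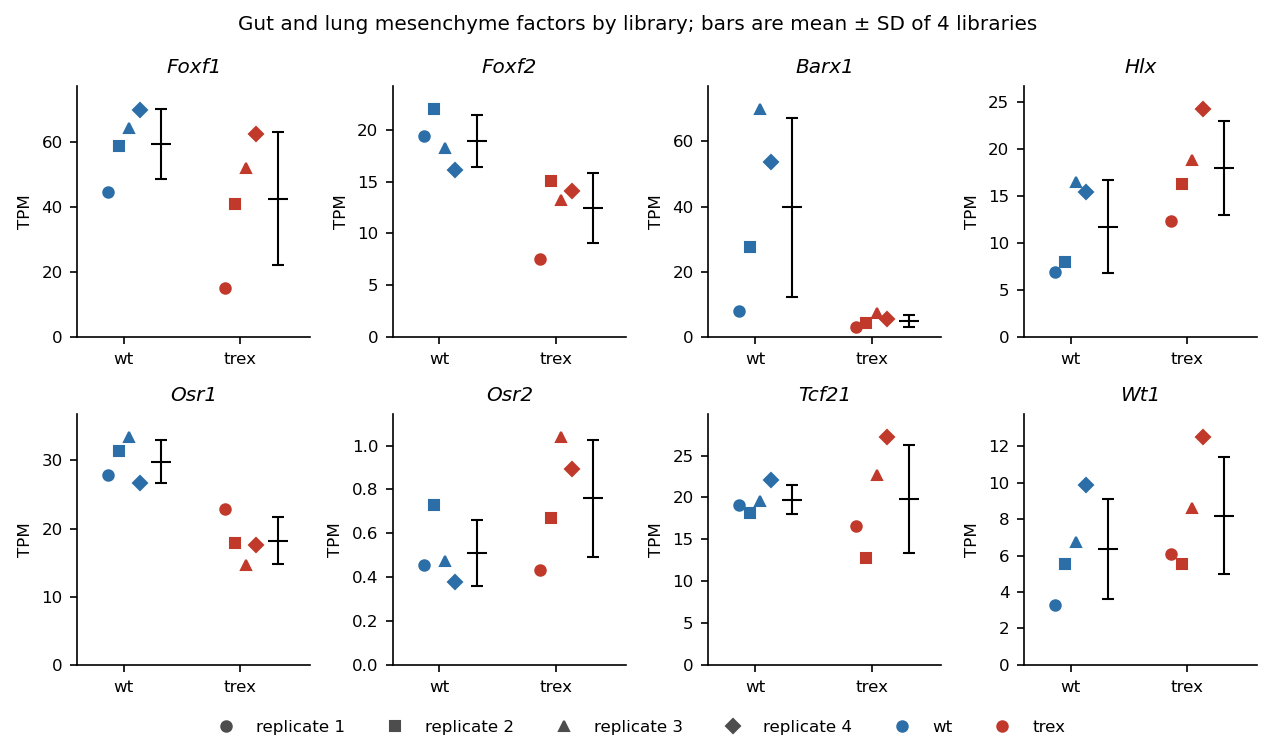
TPM (y axis, from 0) of each of the 8 genes in the 4 wt and 4 trex libraries (x axis), with marker shapes for replicates 1 to 4 and a bar for the mean ± SD. The trex libraries lie below all wt libraries for Barx1, Osr1 and Foxf2, and the groups overlap for the other 5 genes.

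Barx1, a homeobox factor of stomach mesenchyme that is also used in the pharyngeal arches (ENSMUSG00000021381, chromosome 13, 48662998 to 48666507, 4 exon blocks), had the largest difference of the 8. Its level was 2.97, 4.35, 7.28 and 5.60 TPM in trex replicates 1 to 4. In wt replicates 1 to 4 it was 7.89, 27.7, 69.9 and 53.5 TPM. The groups did not overlap, but wt replicate 1 lay just above trex replicate 3, and the wt libraries spread far more widely than the trex libraries. The means were 5.05 ± 1.83 TPM in trex and 39.8 ± 27.4 TPM in wt, 7.87-fold lower in trex. The difference in log2(TPM + 1) was -2.43 ± 0.59 (SE), with an adjusted p of 0.0400. Permuting the samples exactly (two-sided) gave p = 0.0286, the lowest value possible with 4 samples a side. The low levels rested on 24 to 54 reads per trex library, and wt held 60 to 571. The call is close to the threshold. It was lost without trex replicate 1, 3 or 4 or wt replicate 2, 3 or 4 (adjusted p 0.0656 to 0.110) and kept without trex replicate 2 (0.0458) or wt replicate 1 (0.0128), where the difference was -3.04. It was also lost in voom on the recovered reads (adjusted p = 0.0778), and with the presence of Y-linked transcripts as a covariate (-1.92, adjusted p = 0.238), where only 39 genes of all were called. In such bulk samples fewer cells of a type and less RNA per cell cannot be told apart. Of 13 tested Hox genes of groups 6 to 13, 6 rose in the same comparison and 7 were not called (3 called without trex replicate 4), and their part in the Barx1 difference was not tested.

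Osr1, the odd-skipped related factor of lateral and intermediate mesoderm (ENSMUSG00000048387, chromosome 12, 9570116 to 9581500, 4 exon blocks), fell with a far smaller difference but a tighter spread. It stood at 22.9, 17.8, 14.7 and 17.6 TPM in trex replicates 1 to 4 and at 27.8, 31.4, 33.5 and 26.7 TPM in wt replicates 1 to 4. Each trex library lay below each wt library. The means were 18.2 ± 3.42 and 29.8 ± 3.17 TPM, 1.64-fold lower in trex, and the log2 difference was -0.69 ± 0.13 with an adjusted p of 0.0197. The call was lost without trex replicate 4 (0.0627), wt replicate 2 (0.0759) or wt replicate 3 (0.0605), and with Y-linked transcripts as a covariate (0.159). Its paralog Osr2 (ENSMUSG00000022330, chromosome 15, 35296098 to 35303305) held 0.431, 0.672, 1.04 and 0.893 TPM in trex and 0.457, 0.730, 0.473 and 0.380 TPM in wt, from 8 to 20 reads per library. Its groups overlapped (exact two-sided permutation p = 0.2), and it was not in the limma test. The log2 ratio of Osr2 to Osr1, taken on log2(TPM + 1), was -3.45 ± 0.47 in trex and -4.35 ± 0.14 in wt. All 4 trex ratios lay above all 4 wt ratios (exact two-sided permutation p = 0.0286, and 0.0857 adjusted over the 3 ratios compared). A single separated ratio among 3 cannot reach a lower adjusted p with 4 samples a side, so the adjusted value is no test of this difference. Osr1 alone differed by -0.69 on the same scale, without overlap, and the ratio by 0.90. The ratio is thus not separate from the Osr1 difference.

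Foxf1 had the highest mean level of the 8 genes in both genotypes, and neither Foxf gene was called. Foxf1 (ENSMUSG00000042812, chromosome 8, 121084386 to 121088144, 2 exon blocks) stood at 15.1, 40.9, 51.9 and 62.4 TPM in trex replicates 1 to 4. In wt it stood at 44.5, 58.6, 64.3 and 69.8 TPM. Trex replicate 1 was far below the other 7 libraries, and trex replicates 3 and 4 lay within the wt range. The log2 difference was -0.62 ± 0.38 and was not called (adjusted p = 0.309). Without trex replicate 1 it shrank to -0.19 (adjusted p = 0.518). Foxf2 (ENSMUSG00000038402, chromosome 13, 31625816 to 31631403, 2 exon blocks) stood at 7.56, 15.1, 13.2 and 14.1 TPM in trex and 19.4, 22.0, 18.2 and 16.1 TPM in wt. The genotypes did not overlap, although trex replicate 2 and wt replicate 4 were only about 1 TPM apart. The log2 difference was -0.60 ± 0.20 with an adjusted p of 0.0920, between 0.0517 and 0.223 with 1 library left out, and the exact permutation test gave p = 0.0286. The log2 ratio of Foxf2 to Foxf1 was -1.56 ± 0.53 in trex and -1.59 ± 0.40 in wt (exact permutation p = 1). That ratio varied as much within a genotype, from -0.91 to -2.07 in trex, as across all libraries.

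Fendrr, a long non-coding RNA gene on the opposite strand whose start lies 1276 bases from that of Foxf1, was measured in the same libraries (chromosome 8, 121054882 to 121083110). It held 2.61, 6.96, 8.17 and 9.49 TPM in trex replicates 1 to 4, the same order as Foxf1, and 8.48, 8.12, 10.3 and 6.68 TPM in wt, where the order differed. Foxf1 was between 5.78 and 6.58 times Fendrr in trex and between 5.25 and 10.4 times in wt. The low Foxf1 level of trex replicate 1 thus went with the lowest Fendrr level of the 8 libraries, while Mthfsd, the next gene on the other side, stood at 14.8 TPM there and at 12.7 to 14.8 TPM elsewhere. Of 14 tested neighbours of the 8 genes only 1 was called, against 8.71% of all genes tested. This was Foxc2, a forkhead gene in the same cluster as Foxf1. It was higher in trex, at 53.0 ± 11.0 against 33.8 ± 2.26 TPM (adjusted p = 0.0283). This call was lost when trex replicate 4 or any 1 of the wt libraries was omitted.

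**Figure D2:**
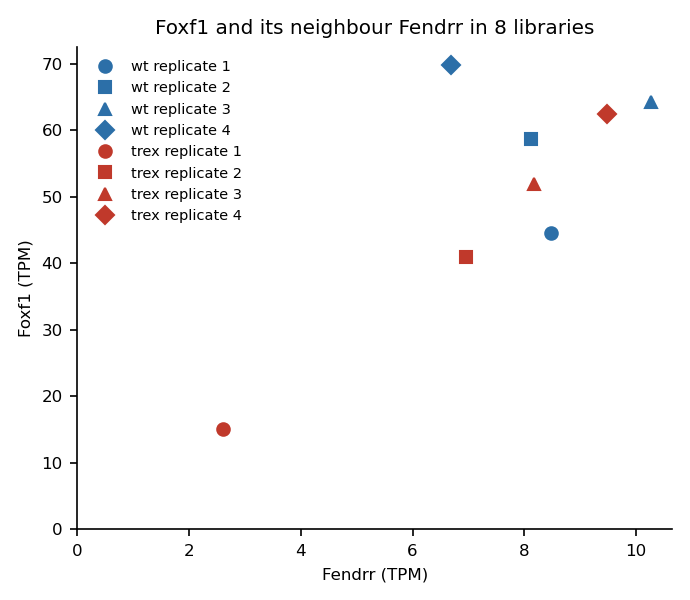
Foxf1 (y axis, TPM) against Fendrr (x axis, TPM) in each of the 8 libraries, blue for wt and red for trex, with marker shapes for replicates. Trex replicate 1 stands apart at 2.61 TPM of Fendrr and 15.1 TPM of Foxf1, and the other 7 libraries lie between 6.68 and 10.3 TPM of Fendrr.

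Hlx and Wt1 leaned the other way without a call. Hlx, a homeobox factor of visceral mesenchyme (ENSMUSG00000039377, chromosome 1, 184727140 to 184732619, 4 exon blocks), stood at 12.4, 16.3, 18.9 and 24.3 TPM in trex replicates 1 to 4 and at 6.95, 8.05, 16.5 and 15.5 TPM in wt. Wt replicates 1 and 2 were lowest, and wt replicates 3 and 4 lay within the trex range. The log2 difference was 0.62 ± 0.30 (adjusted p = 0.201). Wt1, the Wilms tumour zinc finger factor (ENSMUSG00000016458, chromosome 2, 105126529 to 105173616, 10 exon blocks), stood at 6.07, 5.53, 8.64 and 12.5 TPM in trex and 3.30, 5.55, 6.75 and 9.86 TPM in wt. Its groups overlapped through most of their range, and the log2 difference was 0.34 ± 0.31 (adjusted p = 0.495). Tcf21, a basic helix-loop-helix factor of epicardium and visceral mesenchyme (ENSMUSG00000045680, chromosome 10, 22817281 to 22820174, 2 exon blocks), had nearly equal means, 19.8 ± 6.43 TPM in trex and 19.7 ± 1.72 TPM in wt. Its trex libraries, at 16.5, 12.8, 22.7 and 27.3 TPM, enclosed the wt libraries, which held 18.1 to 22.1 TPM. The antisense gene Gm10824 overlaps Tcf21 and stood at 0.870 to 1.94 TPM in all libraries. How the counting used strand is not given, so that reads of the 2 genes may not be fully separated.

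**Figure D3:**
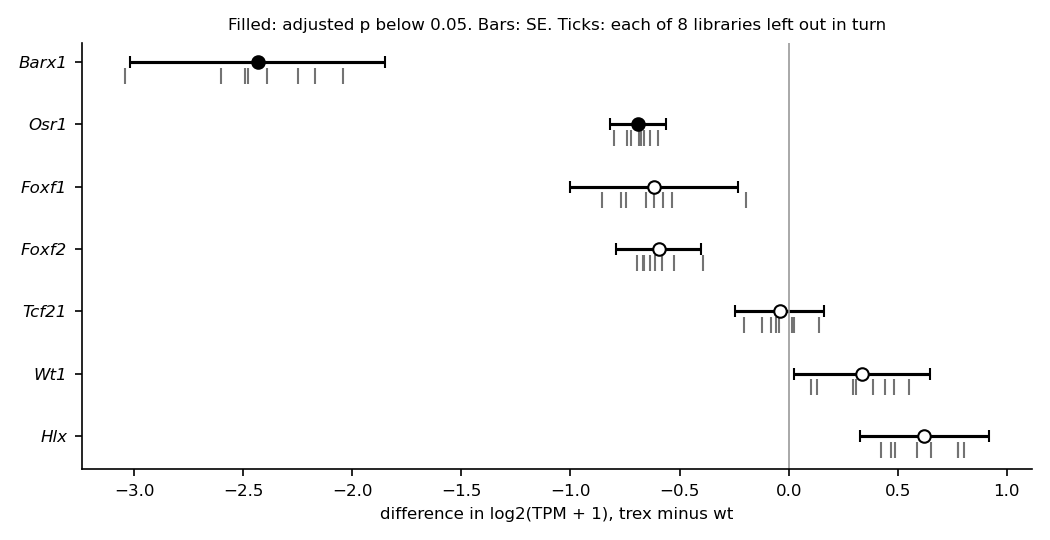
Difference in log2(TPM + 1), trex minus wt (x axis), for the 7 tested genes, with bars for the SE, filled points for an adjusted p below 0.05 and grey ticks for the value with each library left out. Barx1 and Osr1 are the filled points, and the tick nearest 0 for Foxf1, at -0.19, is without trex replicate 1.

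Hlx and Foxf1 stood in the same order as liver and heart content across the trex libraries. Liver bud and yolk sac genes had a mean log2(TPM + 1) of 1.08, 1.71, 3.20 and 4.04 in trex replicates 1 to 4. The wt values were 1.15, 1.02, 2.98 and 2.92. Cardiomyocyte markers summed to 239.3, 263.5, 2348 and 2877 TPM in trex replicates 1 to 4, the same order. Both Hlx and Foxf1 followed that order in trex, and wt Hlx was highest in the libraries with much liver signal. In wt replicates 1 to 4 the cardiomyocyte sums were 318.8, 1301, 684.1 and 2806 TPM, an order that neither gene followed. The trex order is not particular to these genes, since Nkx2-3 also rose from replicate 1 to 4, at 6.07, 9.71, 10.7 and 12.4 TPM. Wt1 was highest in replicate 4 of both genotypes. Barx1 was also highest within each genotype in replicates 3 and 4, the libraries with much liver signal, at 7.28 and 5.60 TPM in trex and 69.9 and 53.5 TPM in wt. In replicates 1 and 2 it held 2.97 and 4.35 TPM in trex and 7.89 and 27.7 TPM in wt. With the liver level as a covariate, chosen after seeing the data, Barx1 and Osr1 were again called (-2.71, adjusted p = 0.0211, and -0.65, adjusted p = 0.0290). In that fit Foxf1 differed by -0.83 (adjusted p = 0.0847) and Hlx by 0.44 (adjusted p = 0.0830), and neither was called.

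**Figure D4:**
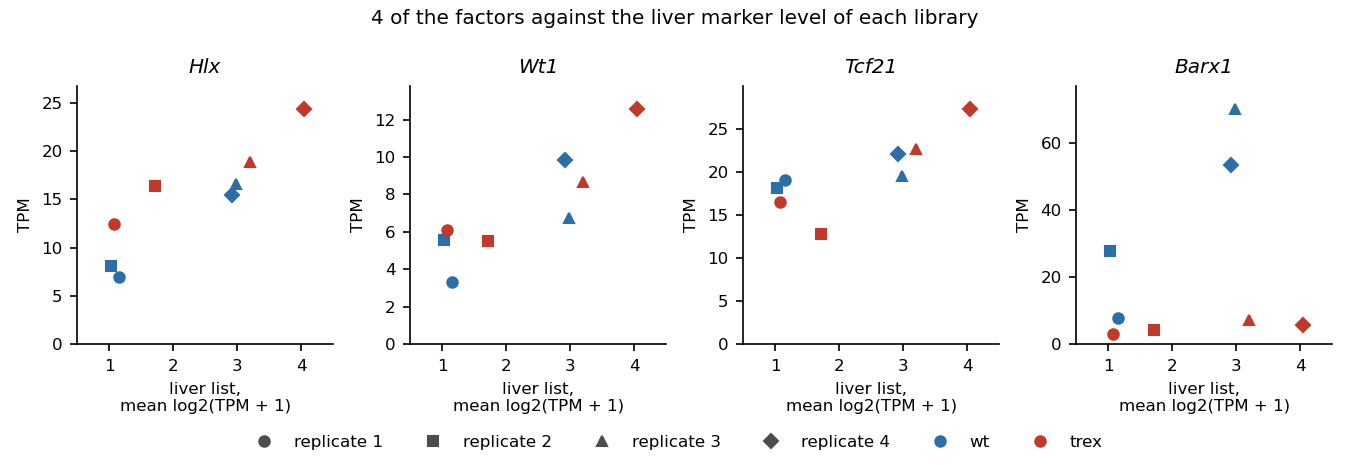
TPM of Hlx, Wt1, Tcf21 and Barx1 (y axes, from 0) against the mean log2(TPM + 1) of the liver list (x axes) in each library, blue for wt and red for trex. Hlx is highest at 24.3 TPM where the liver level is highest, at 4.04, while Barx1 is highest in wt replicates 3 and 4, at 69.9 and 53.5 TPM and liver levels of 2.98 and 2.92.

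Barx1 stood in place 2 by mean level in wt and in place 7 in trex. In wt the means ran from Foxf1 (59.3 TPM) through Barx1 (39.8), Osr1 (29.8), Tcf21 (19.7), Foxf2 (18.9), Hlx (11.8) and Wt1 (6.36) to Osr2 (0.510). Only Osr1 against Tcf21 and Wt1 against Osr2 had ranges that did not overlap among neighbours in this order. In trex the order was Foxf1 (42.6 TPM), Tcf21 (19.8), Osr1 (18.2), Hlx (18.0), Foxf2 (12.5), Wt1 (8.19), Barx1 (5.05) and Osr2 (0.759), and only Barx1 and Osr2 had ranges apart. Of the summed TPM of the 8 genes, Barx1 made up 6.10%, 16.1%, 30.5% and 25.0% in the 4 wt libraries in turn. Its share in trex was 3.40% to 5.26%. Against Foxf1 alone, the log2 ratio of Barx1 was -2.73 ± 0.53 in trex and -0.92 ± 1.07 in wt. The difference of -1.82 had an exact permutation p of 0.0571 (0.0857 adjusted over 3 ratios), and wt replicate 1, at -2.36, lay among the trex libraries.

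No Hedgehog gene tested was called lower. Of 14 tested, 2 rose and 12 were not called, against 8.71% of all genes called. Ptch1, the Hedgehog receptor whose gene is itself a target of the pathway, stood at 134.9, 95.6, 90.1 and 98.6 TPM in trex and 69.7 to 75.4 TPM in wt (adjusted p = 0.0341). Gli2, a transcription factor of the pathway, rose 1.23-fold (adjusted p = 0.0188). Neither was called without trex replicate 4 or any 1 of the wt libraries. Shh, the ligand of endoderm and floor plate, stood at 41.4 to 43.3 TPM in trex and 40.1 to 45.4 TPM in wt (adjusted p = 0.786), and the list's median log2 difference was 0.05.

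Other regulators of splanchnic mesenchyme changed in both directions. Of 22 tested, 4 rose, 3 fell and 15 were not called, against 8.71% of all genes called. Nkx2-3, a homeobox factor of gut and spleen mesenchyme, rose 3.35-fold, from 2.91 ± 0.791 to 9.73 ± 2.68 TPM (adjusted p = 0.0121), opposite in direction to Barx1. Isl1, of second heart field and foregut mesoderm, fell 1.39-fold. Nr2f2, the nuclear receptor COUP-TFII, rose 1.15-fold. The number called fell to 4 without wt replicate 4, to 3 without trex replicate 3, and to 2 without trex replicate 4 or wt replicate 1, 2 or 3. Of 20 signals and mesenchymal products linked to the 8 factors, 3 rose and 2 fell. Bmp4, a bone morphogenetic protein ligand of mesenchyme, rose 1.64-fold, from 54.8 ± 4.19 to 90.2 ± 10.4 TPM. Wnt2b, a lung mesenchyme ligand, fell 2.90-fold, from 4.25 ± 0.837 to 1.47 ± 0.452 TPM, and Wnt5a fell 1.45-fold. The secreted Wnt antagonists Sfrp1 and Sfrp2, which Barx1 is known to raise in the stomach, were not called (adjusted p = 0.549 and 0.0914). The number called in this list was 3 without trex replicate 3 or 4 or wt replicate 3 or 4, and 1 without wt replicate 2.

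**Figure D5:**
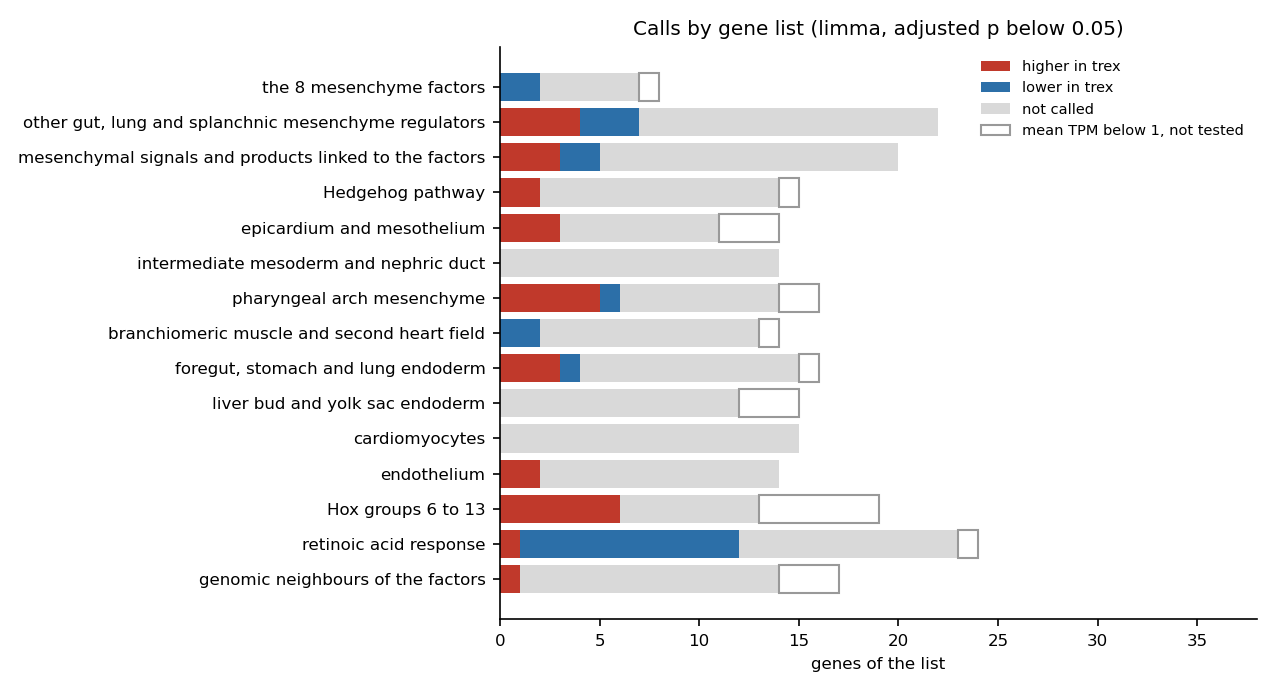
Number of genes (x axis) in each list that were higher in trex (red), lower in trex (blue), not called (grey) or not tested (open), with 1 bar per list. The 8 factors hold 2 lower and 0 higher genes, and the retinoic acid list holds 11 lower and 1 higher.

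Among markers of tissues that share these factors, the number called varied by list, against 8.71% of all genes tested. The pharyngeal arch list, whose tissue shares Barx1 and Osr2, is given further below. Of 11 tested epicardial and mesothelial markers, which share Tcf21 and Wt1, 3 rose and 8 were not called. Those that rose were the guidance ligand gene Sema3d (1.32-fold, adjusted p = 0.0166), the keratin gene Krt19 and the sialomucin gene Podxl. Tbx18 (adjusted p = 0.836) and Upk3b (0.494) were among the uncalled. Krt19 was highest in trex replicate 1, at 172.0 TPM, the library where Tbx18 was lowest, at 11.5 TPM. Leaving out trex replicate 4 left 1 gene of the list called, and leaving out trex replicate 3 or wt replicate 1, 2 or 3 left none. Of 14 genes of intermediate mesoderm and nephric duct, which share Osr1 and Wt1, limma called 0 and voom 1. In limma 4 had an unadjusted p under 0.05, but that count was not made over all genes, so no excess can be read from it. Limma called 2 without trex replicate 1 and 3 without trex replicate 2. Among 24 retinoic acid response genes, 11 fell and 1 rose of 23 tested, between 8 and 15 being called with 1 library left out.

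The genes whose pattern over the 8 libraries was most like that of a called factor were taken by the smallest root mean square difference of centred log2(TPM + 1) values, among 12868 named protein-coding genes. For Osr1 these were Hoxb1 (0.095), a Hox gene induced by retinoic acid, Cspg5 (0.113) and Clec1b (0.115). For Barx1 the nearest had larger differences, among them Gcg (0.629), the glucagon gene, and Ankrd2 (0.719). The values were not scaled, so the measure grows with a gene's own spread, which was wider for Barx1 than for Osr1. Gcg was listed at 0 in all 4 trex libraries and held 0.493, 0.472, 10.5 and 6.91 TPM in wt replicates 1 to 4. It was not called (adjusted p = 0.104). Gcg was picked for its likeness to Barx1, so being highest in the same 2 wt libraries is no separate result.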

How the data were processed

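The 8 libraries were poly-A selected and made with a stranded kit, per the labels' protocols. The submitters' processing notes list STAR, CASAVA 1.8.2 and the mm10 build. Which counter, strand option and annotation produced the values is not given in the sources used here. The deposited values are TPM, 1 column per sample, each summing to 1000000. Symbols, positions and exonic lengths came from GENCODE M21, which matched 55240 of 55421 identifiers. Multiplied by exonic length, 98.7% to 98.9% of the low TPM values (up to 200 reads) were whole multiples of 1 step within 0.001 read, which gave the reads quoted. Genotypes were compared with limma 3.58.1 (R 4.3.3) on log2(TPM + 1), pseudocount 1, eBayes with a trend, two-sided, genotype as the only term, over genes with a mean TPM of at least 1. Log2 differences understate the change of weakly expressed genes. Ratios between factors were tested by exact two-sided permutation. Every adjusted p of a gene is limma's with Benjamini-Hochberg adjustment. The genes named were the 8 factors and up to 4 called genes with the smallest p of each list. Any measured Hedgehog or neighbouring gene and the nearest genes by pattern could also be named. Albumin, Sfrp1, Sfrp2, Tbx18, Upk3b and the overlapping Gm10824 were named after their values were seen. A few genes that this rule selects are not reported here. The factors and lists were chosen with earlier results of these data known. Alternatives were pseudocounts of 0.1 and 5, no filter or one at a mean TPM of 5, 3 other scalings, other variance models, voom, 2 covariates, the replicate number as a block, and leaving out each sample. The fit was tested on simulated data.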

Additional observations from a re-analysis of the deposited data

Results flagged for a closer look

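Dixon's test for an extreme value was run on the 4 libraries of each genotype for the 8 factors, the 3 ratios and the list sums. It picked out 3 of 50 such sets, all of them list sums, where about 1 in 20 is the chance rate. Trex replicate 1 held a summed 350.9 TPM of intermediate mesoderm and nephric duct genes where the other trex libraries held 260.5 to 270.9 TPM. It also held 726.7 TPM of the genes that neighbour the 8 factors, against 565.5 to 570.8 TPM in the others. In wt replicate 1 the endothelial list summed to 585.5 TPM, against 615.6 to 619.8 TPM in the other wt libraries.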

How the results depend on the processing

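The number of genes called was 1369 (777 higher and 592 lower), and it was 694 with no filter, 5524 with array weights, 39 with Y-linked transcripts as a covariate and between 201 and 2911 with 1 library left out. After quantile normalization 633 were higher and 739 lower, and in voom 633 and 809. Of the 8 factors 2 were lower, and 1 was with no filter, 1 with eBayes without a trend and 1 in voom, 0 with the Y-linked covariate and between 0 and 2 with 1 library left out; array weights called 1 as higher. The adjusted p of Barx1 was 0.0794 with no filter, 0.0582 with eBayes without a trend, 0.0778 in voom, 0.238 with the Y-linked covariate and from 0.0128 to 0.110 with 1 library left out. That of Osr1 was 0.159 with the Y-linked covariate and from 0.00578 to 0.0759 with 1 library left out. Array weights gave 0.00584 for Foxf2 and 0.0432 for Hlx, which were not called otherwise. Tcf21, not called under any setting run, changed sign with array weights (adjusted p 0.235) and with some libraries left out (0.469 to 0.976 over all 8). The ratio of Foxf2 to Foxf1, 0.02 higher in trex, was -0.013 after quantile normalization, -0.0012 in voom and from -0.20 to 0.19 with 1 library left out. Foxf1 and Wt1 kept their sign and stayed uncalled in all 22 alternatives. The cause of these changes was not tested.

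Whether the replicate number pairs the samples cannot be settled from these values. Titles of the wt samples run on in number from those of trex, while the replicate labels used here start again at 1. Deviations of same-numbered libraries correlated at 0.162, -0.0225, -0.00449 and 0.252, and only replicates 1 and 4 correlated best with their own number. Liver levels were higher in replicates 3 and 4 than in replicates 1 and 2 in both genotypes. With the replicate number as a block, the SE of Barx1 went from 0.59 to 0.33 and that of Osr1 from 0.13 to 0.14. With the replicate block 687 genes and 1 of the 8 factors were called, Barx1 at an adjusted p of 0.0269 and Osr1 at 0.0552. Depth limits mainly Osr2, which rests on 8 to 20 reads per library.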

Other observations

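Genes of pharyngeal arch mesenchyme, where Barx1 and Osr2 are also used, changed in both directions. Of 14 tested, 5 rose, 1 fell and 8 were not called, against 8.71% of all genes called. The 1 that fell had the smallest adjusted p of the list and is not reported here. Alx1, a homeobox factor of neural crest mesenchyme, rose 1.91-fold (adjusted p = 0.00963), Dlx5, of the ventral arches, 2.30-fold (0.0149), and Msx2, a BMP target, 1.43-fold (0.0188). The number of the list called in either direction was 6, and it was 3 without trex replicate 3 or 4 or wt replicate 3, and 2 without wt replicate 2.

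Of 13 tested genes of branchiomeric muscle and second heart field, a lineage that shares Tcf21, 2 fell and none rose. Over all genes 8.71% were called. Msc, the muscle progenitor factor that acts beside Tcf21 in head muscle, fell 12.8-fold. It stood at 0.681, 0.341, 0.444 and 0.0669 TPM in trex replicates 1 to 4 and at 5.06, 5.96, 4.44 and 4.12 TPM in wt, with no overlap (adjusted p = 0.00133). Isl1 was the other. Omitting trex replicate 4 or wt replicate 1, 2 or 3 left 1 gene called. In foregut endoderm Nkx2-1, of the lung and thyroid primordia, fell 9.04-fold while Foxe1, of the thyroid, rose 1.87-fold, and of 15 genes tested 3 rose and 1 fell. That count of 4 was 2 without trex replicate 1 or 3 or wt replicate 4, and 1 without trex replicate 4 or wt replicate 1, 2 or 3.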
